A study of Rattus norvegicus with 5 samples.

Results

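Rab genes encode the Rab GTPases, and 58 rat genes of the RefSeq annotation carry a symbol made of Rab, a number and, where there is one, a letter. They were followed through 9 deposited lists of DNA regions enriched by an antibody against N6-methyladenine (6mA): 3 lists of peaks over input and 6 comparison tables. A gene counted as listed when a region named it in the promoter, 2 kb upstream, exon, intron, 2 kb downstream or gene body class. In all, 44 of the 58 Rab genes were named by at least 1 region, 38 of them by a peak over input and 6 by comparison tables alone. These counts over several lists were not made for all genes, so they show nothing particular to Rab genes. Shares of all genes are given below list by list.

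The study mapped 6mA by MeDIP-seq, in which sheared genomic DNA is pulled down with an antibody and sequenced, in rat Astrocytes, Neurons and neural stem cells (NSCs). NSCs were SCR022, a line of neural stem cells from adult rat hippocampus, and the labels give no genotype, treatment, strain, age or culture for Neurons and Astrocytes beyond the cell type. Each cell type gave 1 immunoprecipitated library, and inputs of sheared DNA without enrichment were among the samples for Neurons and NSCs. The Astrocyte peak list was called against an astrocyte input whose library is not used here. No value below could be set against a spread between replicates, so levels and counts are given without a test. DNA enrichment does not read expression, so the cell type labels could not be checked against marker genes. The antibody's reading was not checked against another measure of 6mA.

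Rab proteins are small GTPases that switch between an active GTP-bound and an inactive GDP-bound form, and each marks a particular membrane of the cell. Guanine nucleotide exchange factors (GEFs) switch them on, GTPase-activating proteins (GAPs) switch them off, and effectors such as motors, tethers and scaffolds read the active form. In neurons they route membrane between the Golgi, endosomes, lysosomes and synaptic vesicles, and Rab3 and Rab27 proteins sit on vesicles that await release.

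Peaks lay in the promoters of 5 Rab genes in Astrocytes (8.62%), 7 in Neurons (12.1%) and 5 in NSCs (8.62%). Of all protein-coding genes, 6.40%, 7.94% and 6.40% had a promoter peak in those lists. The promoters of Rab17, Rab27a, Rab3c and Rab3d are shown because each was named by a promoter peak in at least 2 of the 3 cell types. A promoter peak of Rab2a was also listed in all 3. The sequences are the RefSeq promoters of build GRCr8, from 250 bases before to 50 bases after the gene start, with each CG dinucleotide in capitals. They are chr9:99013983-99014282 on the minus strand for Rab17, chr8:82663123-82663422 on the plus strand for Rab27a, chr2:43575894-43576193 on the minus strand for Rab3c and chr8:28725218-28725517 on the minus strand for Rab3d. The sources used here give no build for the peak lists, so a peak could not be placed on these letters. The promoter class of the peak lists was not matched to this window, so a promoter peak may lie outside it.
Rab17: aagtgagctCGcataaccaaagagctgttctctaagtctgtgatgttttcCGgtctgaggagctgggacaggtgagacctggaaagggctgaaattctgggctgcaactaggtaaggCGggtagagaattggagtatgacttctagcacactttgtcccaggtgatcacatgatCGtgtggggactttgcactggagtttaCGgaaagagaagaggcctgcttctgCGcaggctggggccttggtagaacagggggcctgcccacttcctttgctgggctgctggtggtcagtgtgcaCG
Rab27a: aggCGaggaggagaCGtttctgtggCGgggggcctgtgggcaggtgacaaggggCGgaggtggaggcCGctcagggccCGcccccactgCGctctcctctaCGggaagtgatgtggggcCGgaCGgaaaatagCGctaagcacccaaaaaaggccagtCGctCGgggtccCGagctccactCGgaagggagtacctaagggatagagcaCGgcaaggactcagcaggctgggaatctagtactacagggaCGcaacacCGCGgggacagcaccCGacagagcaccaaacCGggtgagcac
Rab3c: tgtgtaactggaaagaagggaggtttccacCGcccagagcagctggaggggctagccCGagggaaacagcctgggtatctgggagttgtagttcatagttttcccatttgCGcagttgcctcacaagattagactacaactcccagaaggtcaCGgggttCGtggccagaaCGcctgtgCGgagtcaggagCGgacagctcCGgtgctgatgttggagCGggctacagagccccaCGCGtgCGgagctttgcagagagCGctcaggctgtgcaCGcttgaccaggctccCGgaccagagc
Rab3d: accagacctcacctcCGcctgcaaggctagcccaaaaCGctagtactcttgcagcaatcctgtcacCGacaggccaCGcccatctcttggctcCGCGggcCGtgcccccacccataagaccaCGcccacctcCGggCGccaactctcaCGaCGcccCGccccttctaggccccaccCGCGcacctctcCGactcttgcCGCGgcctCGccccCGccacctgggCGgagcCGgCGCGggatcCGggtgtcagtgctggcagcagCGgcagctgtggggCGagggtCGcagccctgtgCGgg
The Rab17 promoter held 7 CG dinucleotides, the Rab3c promoter 16, the Rab27a promoter 21 and the Rab3d promoter 29. Rab promoters in the table ranged from 4 to 41 and had a median of 21 over 47 genes, against a median of 7 over all 33469 promoters. These 33469 outnumber the 23154 protein-coding genes counted below, so they are not the same background. The letters GATC, which read the same on both strands, stood in 57.4% of the Rab promoters and in 46.9% of all promoters. Among the 4 shown, GATC occurred 2 times in Rab17 and 1 time in Rab3d, and it was not in the windows of Rab27a and Rab3c. The 6 Rab promoters in the table with a promoter peak in any cell type had a median of 18.5 CG dinucleotides, and the 41 without one a median of 21.

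Depths of the immunoprecipitated libraries were close, with 15767015 reads in Astrocytes, 16095308 in Neurons and 15760246 in NSCs. The inputs were deeper and less alike, with 22329441 reads for Neurons and 27936774 for NSCs. The authors listed 116091 peaks in Astrocytes, 137579 in Neurons and 121816 in NSCs, each with a score of 10 times the −log10 p of at least 50. Scores and folds over input are the authors' own values per peak, and folds of separate lists stand side by side without a comparison. A gene with no peak in a list is one with no region past that score, which does not show that the mark is absent. Positions are those of the deposited files.

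A peak named 31 of 58 Rab genes in Astrocytes (53.4%), against 39.5% of 23154 protein-coding genes. In Neurons 32 Rab genes had a peak (55.2%), where 42.3% of all genes had one. In NSCs it was 28 Rab genes (48.3%), with 39.3% of all genes. Over the 20950 genes with a name other than a placeholder, the shares were 43.1% in Astrocytes, 46.1% in Neurons and 42.8% in NSCs. Among peaks at or above the median score, the shares were 31% of Rab genes against 28.3% of all genes in Astrocytes, 39.7% against 30.5% in Neurons and 31% against 28% in NSCs. Rab genes are longer than genes at large, with a median of 23.4 kb against 15.5 kb over all protein-coding genes. Of Rab genes of 30 to 100 kb, 11 of 16 had a peak in Astrocytes (68.8%) and 11 of 16 in NSCs (68.8%), beside 67.8% and 67.9% of all genes of that length. In Neurons 13 of 16 had one (81.2%), beside 71.5%. Between 10 and 30 kb the shares were 58.6% of 29 Rab genes in Astrocytes, 51.7% in Neurons and 51.7% in NSCs, beside 38.3%, 42.7% and 37.8% of all genes of that length. Below 10 kb, none of 10 Rab genes had a peak in Astrocytes, 1 in Neurons and none in NSCs, beside 11.3%, 13.0% and 10.9% of all genes of that length. Over 100 kb, 3 of 3 Rab genes had one in Astrocytes, 3 in Neurons and 2 in NSCs, beside 86.9%, 87.5% and 87.0%. Lengths are those of the RefSeq annotation.

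**Figure D1:**
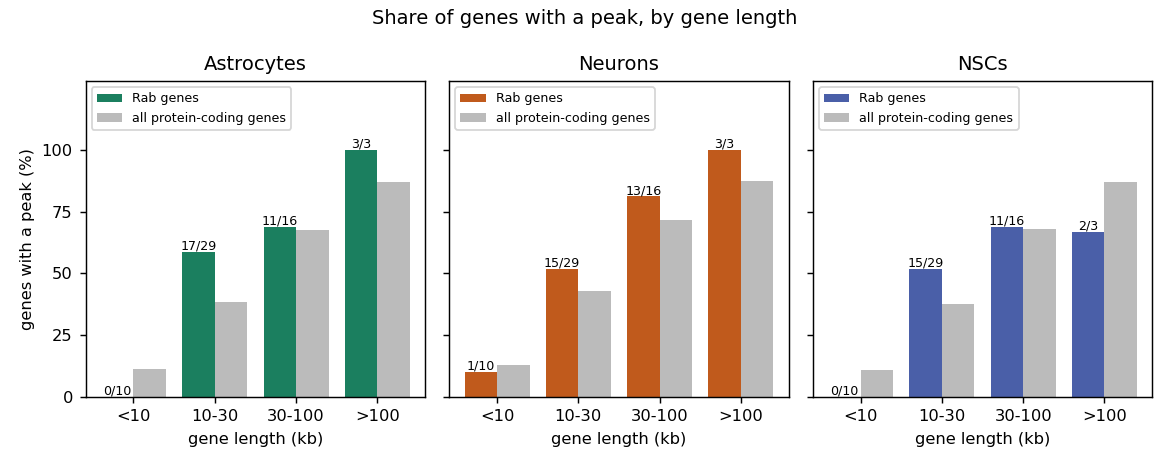
The bars show the percent of genes with a peak in 4 classes of gene length (kb), for Rab genes (coloured) and all protein-coding genes (grey), in 1 library per cell type; the labels count Rab genes with a peak over those in the class. From 10 to 30 kb the Rab bars stand above the grey ones in all 3 panels (58.6%, 51.7% and 51.7%), and in Astrocytes and NSCs they are level with them from 30 to 100 kb (68.8%).

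The 14 Rab genes with no region in any of the 9 lists were Rab1b, Rab3a, Rab4b, Rab5a, Rab9b, Rab12, Rab13, Rab19, Rab24, Rab26, Rab29, Rab33a, Rab40c and Rab42. Their median length was 9 kb and their longest 35.2 kb, against a median of 25 kb and a longest of 223 kb for the 44 that were named. Rab3a, the most studied Rab protein of synaptic vesicles, is 4.11 kb long, and Rab5a, which governs fusion of early endosomes, 29.4 kb. At the other end, 23 Rab genes had a peak in all 3 cell types, with a median length of 27.6 kb. That count was also not made for all genes. Peaks at Rab genes numbered 73 in Astrocytes, 83 in Neurons and 62 in NSCs. Their median fold over input was 11.7 in Astrocytes, 12.3 in Neurons and 12.3 in NSCs, beside 12.4, 12.1 and 12.3 over all peaks named to a gene in those lists. Most lay in introns alone: 80.8% of the Rab peaks in Astrocytes, 78.3% in Neurons and 74.2% in NSCs, beside 80.9%, 80.2% and 81.0% of all gene-named peaks.

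**Figure D2:**
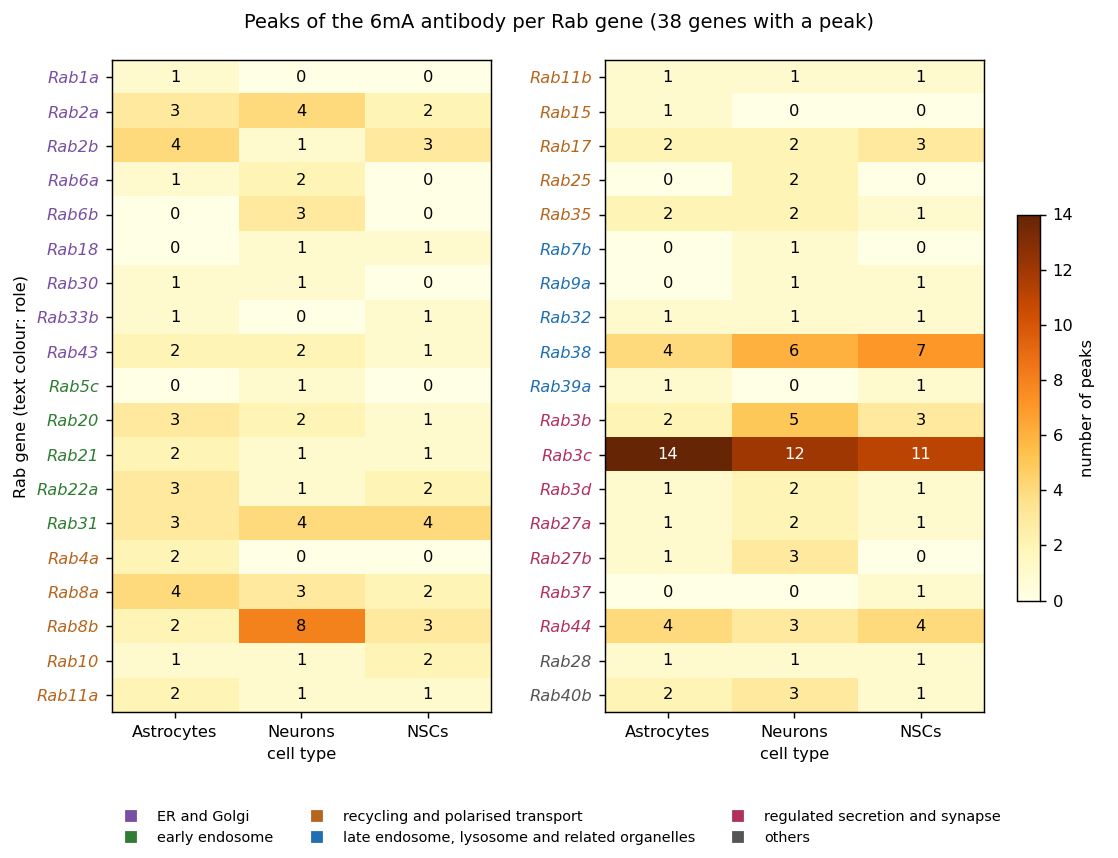
Each row is 1 of the 38 Rab genes with a peak, each column 1 library, and the number and shade give the peaks over input named to that gene; text colour gives the role. Rab3c stands out with 14, 12 and 11 peaks, while most genes hold between 0 and 4.

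The 9 genes of regulated secretion and the synapse held the most peaks of any role: 23 in Astrocytes, 27 in Neurons and 21 in NSCs, in 6 genes of each list, and their median length was 53.9 kb. Rab3c, one of the Rab3 paralogues that sit on synaptic vesicles, alone held 14 peaks in Astrocytes, 12 in Neurons and 11 in NSCs. That was 19.2%, 14.5% and 17.7% of all Rab peaks of those lists, in a gene of 223 kb, and 6.27, 5.37 and 4.92 peaks per 100 kb. Its peaks merged into 18 places, of which 8 had a peak in all 3 cell types, 3 in a pair of them and 7 in a single one. The strongest place in Astrocytes and Neurons was an intron at chromosome 2, 41657184 to 41657876 in Neurons, with 73.9-fold in Astrocytes, 75.8-fold in Neurons and 59.8-fold in NSCs over input. In NSCs the strongest was another intron peak, at 41578909 to 41579880, with 31.8-fold in Astrocytes, 40.5-fold in Neurons and 63.7-fold in NSCs. This second place was listed as higher in NSCs in both of the authors' deposited tables that hold NSCs, at 4.52-fold over Astrocytes and 6.42-fold over Neurons. A further place, at an exon and intron, had 33.1-fold, 20.5-fold and 27.6-fold in Astrocytes, Neurons and NSCs. The peak over the promoter, an exon and an intron was weaker, with 10.7-fold in Astrocytes, 10.5-fold in Neurons and 10.4-fold in NSCs.

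Rab3b, a further synaptic vesicle Rab, carried the largest fold of any Rab gene in Neurons. Its intron peak at chromosome 5, 128559451 to 128560008 in Neurons, reached 63.6-fold in Astrocytes, 100.3-fold in Neurons and 56.5-fold in NSCs over input. These ranked 1958th of 116091, 558th of 137579 and 1703rd of 121816 peaks by fold in their lists. None of the authors' deposited tables listed this peak as different between cell types. A second intron peak of Rab3b had 15.2-fold, 24.9-fold and 12.5-fold in Astrocytes, Neurons and NSCs. Neurons had 3 more intron peaks in Rab3b at 10.9-fold to 14.5-fold that overlapped no peak of the other cell types, and NSCs had 1 at 11.5-fold. The NSC peak was listed as higher in NSCs in the authors' deposited tables, at 6.75-fold over Astrocytes and 10.8-fold over Neurons. Other Rab3b intron regions were listed as higher in Neurons in the authors' deposited tables. There was 1 at 11.3-fold over NSCs and a pair at 7.02-fold and 9.46-fold over Astrocytes.

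**Figure D3:**
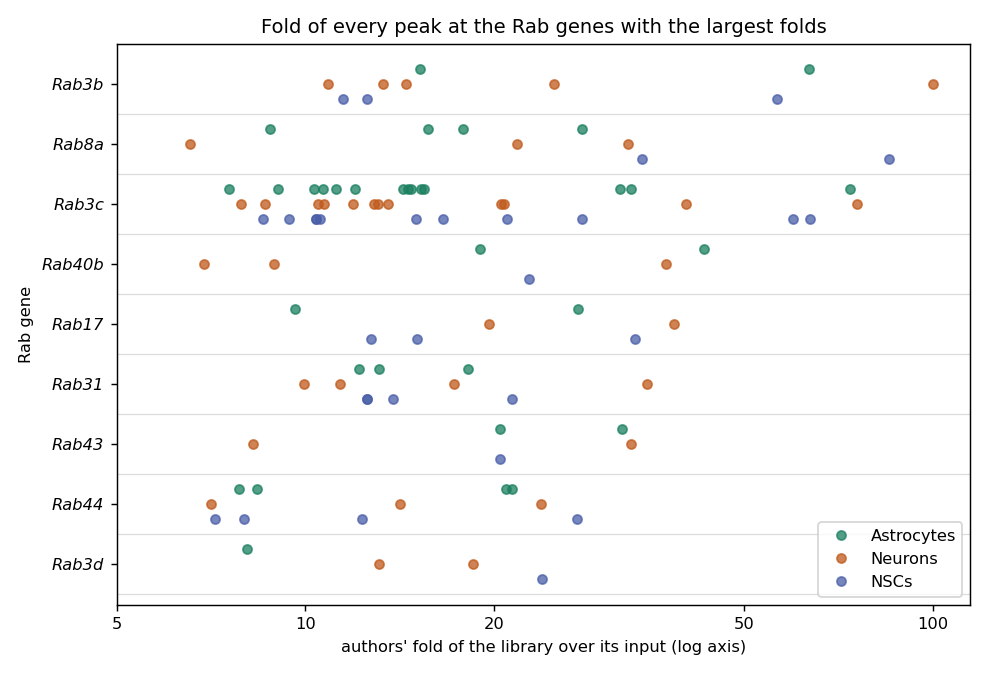
Every point is 1 peak, placed by the authors' fold of the library over its input (log axis) at 9 Rab genes with the largest folds, in 3 libraries. The highest points are the Rab3b peak of Neurons at 100.3, the Rab8a peak of NSCs at 85.3 and the Rab3c peaks of Astrocytes and Neurons at 73.9 and 75.8.

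Rab3d, which acts on secretory granules, had a promoter peak in all 3 lists, at chromosome 8, 22930776 to 22931434 in Neurons. Its fold over input was 8.07 in Astrocytes, 18.5 in Neurons and 23.9 in NSCs. The same region also named Tmem205, so it may belong to either gene, and the authors' deposited tables did not list it as different. Rab27a, which docks lysosome-related organelles and exosome carriers at the plasma membrane, had a promoter peak of 8.37-fold in Astrocytes and 15.1-fold in Neurons and none in NSCs. The Neuron peak was listed at 7.11-fold over NSCs in the authors' deposited table, while no table listed it between Astrocytes and Neurons. An intron region of Rab27a was higher in Neurons at 7.51-fold over NSCs and 9.09-fold over Astrocytes in the authors' deposited tables. Another intron region was higher in NSCs at 8.92-fold over Astrocytes in the authors' deposited table. Rab27b, the paralogue of Rab27a, had 1 intron peak in Astrocytes, 3 in Neurons and none in NSCs along 199 kb. The strongest, 18.1-fold over input in Neurons, was listed at 7.28-fold over NSCs and 6.01-fold over Astrocytes in the authors' deposited tables.

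Rab44, a large Rab protein known from immune cells, had peaks at 3 places shared by all cell types. At the first, the fold over input was 20.9 in Astrocytes, 23.7 in Neurons and 12.3 in NSCs. That place was higher in Astrocytes at 4.10-fold and in Neurons at 4.53-fold over NSCs in the authors' deposited tables. At the last of them it was 21.3 in Astrocytes, 14.2 in Neurons and 27.1 in NSCs. There NSCs were higher, at 4.38-fold over Astrocytes and 3.97-fold over Neurons in the authors' deposited tables. Rab44 therefore held regions of both directions within 1 gene. Rab37, a Rab of secretory granules, had a single peak, in NSCs at 4.71-fold, the smallest fold of the Rab peaks of that list, over its promoter and an exon in a CpG island shore.

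Among the 13 genes of recycling and polarised transport, peaks numbered 17 in Astrocytes, 20 in Neurons and 13 in NSCs. Rab8a, which carries membrane from the Golgi towards the plasma membrane and the primary cilium, held the strongest Rab peak of NSCs. This intron peak at chromosome 16, 19357583 to 19359135, was 1553 bp wide, and its fold over input was 27.6 in Astrocytes, 32.7 in Neurons and 85.3 in NSCs. It ranked 437th of the 121816 NSC peaks by fold, and its score of 3100 was reached or passed by 247 NSC peaks. NSCs were higher there at 9.86-fold over Astrocytes and 8.22-fold over Neurons in the authors' deposited tables, with scores of 391 and 250.5. A neighbouring exon and intron peak had 17.8-fold in Astrocytes, 21.8-fold in Neurons and 34.4-fold in NSCs. It was listed at 5.78-fold over Astrocytes in the authors' deposited table and not over Neurons. Another place, at a higher position on the chromosome, had a peak in Astrocytes at 8.78-fold and in Neurons at 6.54-fold, and none in NSCs. Rab8a is 21.4 kb long and held 18.7, 14 and 9.36 peaks per 100 kb in Astrocytes, Neurons and NSCs, among the densest Rab genes of at least 20 kb in each list. In Astrocytes the place of the strongest NSC peak was split into separate peaks, of 15.7-fold and 27.6-fold, which raises that density. Merged, the Rab8a peaks made 3 places, of which 2 had a peak in all 3 cell types.

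**Figure D4:**
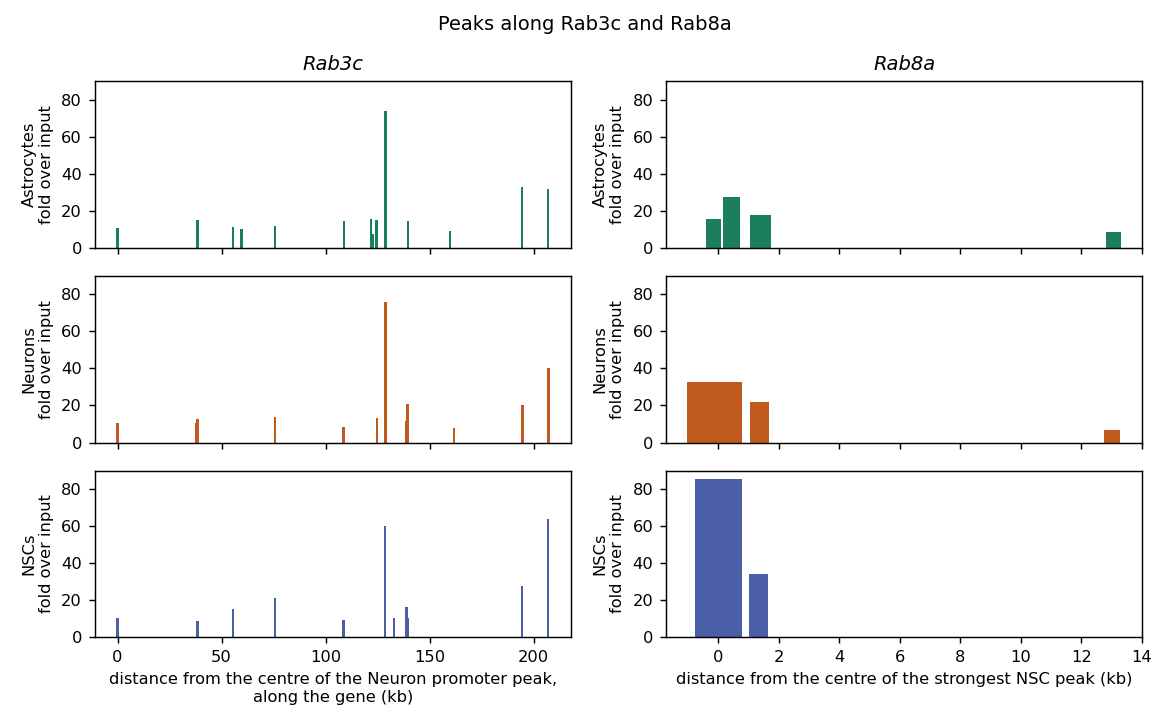
Bars show each peak of Rab3c and Rab8a, placed by distance in kb, with the authors' fold over input as height. Distances run along the gene for Rab3c and in chromosome order for Rab8a. Panels show Astrocytes, Neurons and NSCs from top to bottom. Bar widths are to scale for Rab8a, while Rab3c bars are drawn wider than their peaks. The tallest Rab3c bar is at the same place in Astrocytes and Neurons (73.9 and 75.8) and at another in NSCs (63.7), and the Rab8a bar of NSCs reaches 85.3 against 27.6 in Astrocytes and 32.7 in Neurons.

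Rab8b, the paralogue of Rab8a, had 2 peaks in Astrocytes, 8 in Neurons and 3 in NSCs along 77.5 kb. Its promoter peak was listed in Neurons alone, at 11.5-fold over input, and as 12.9-fold over NSCs in the authors' deposited table. The largest Rab8b region between cell types was an intron in Neurons, at 15.7-fold over NSCs in the authors' deposited table. A pair of intron regions went the other way, at 12.3-fold and 13.6-fold higher in NSCs than in Neurons in the authors' deposited table. Neither lay in an NSC peak over input. Rab17, known from transcytosis in epithelia and from dendrites of hippocampal neurons, had the largest fold of a Rab promoter peak in each of the 3 lists. At chromosome 9, 98130647 to 98131863 in Neurons, it spanned promoter, exon and intron, with 27.2-fold in Astrocytes, 38.6-fold in Neurons and 33.5-fold in NSCs. No deposited table listed it as different between cell types. NSCs alone had a further peak upstream of it at 15.0-fold. A peak downstream of Rab17 had 9.63-fold, 19.6-fold and 12.7-fold in Astrocytes, Neurons and NSCs, and Neurons were higher there at 5.02-fold over Astrocytes and 4.64-fold over NSCs in the authors' deposited tables.

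Rab10, Rab11a, Rab11b and Rab35 had 1 or 2 peaks per list, and no fold above 18.9. Rab10, which delivers membrane to growing axons and dendrites, had 13.0-fold in Astrocytes, 10.9-fold in Neurons and up to 17.6-fold in NSCs in introns. Rab11a, the main Rab of recycling endosomes, had an intron peak of 13.4-fold in Astrocytes and 18.9-fold in Neurons and none in NSCs. A downstream peak of Rab11a, at 11-fold in Astrocytes and 15.5-fold in NSCs, also named Megf11. The Rab11b intron peak was at 8.93-fold, 7.79-fold and 10.1-fold in Astrocytes, Neurons and NSCs. Rab35, which returns cargo from endosomes and shapes neurites, had up to 9.10-fold in Astrocytes, 12.8-fold in Neurons and 6.48-fold in NSCs. Neurons were higher in 2 Rab35 intron regions, at 5.96-fold and 5.40-fold over NSCs in the authors' deposited table. Rab15, an endosomal Rab found in brain, had 1 intron peak in Astrocytes at 10.2-fold, and its promoter was higher in Astrocytes at 11.7-fold over Neurons in the authors' deposited table. Rab4a, of rapid recycling, had peaks in Astrocytes alone, at 11.8-fold and 8.10-fold. Rab25, an epithelial relative of Rab11a, had peaks in Neurons alone, of which the promoter peak at 12.6-fold also named Lamtor2. Rab14, which acts between the Golgi and endosomes, had no peak over input. A region downstream of it was higher in NSCs at 10.6-fold over Astrocytes and 9.87-fold over Neurons in the authors' deposited tables.

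Of the 14 genes of the endoplasmic reticulum and Golgi, 7 had a peak in Astrocytes, 7 in Neurons and 5 in NSCs. Rab2a, which acts between the endoplasmic reticulum and the Golgi, was the sole Rab gene with a peak over a CpG island in these peak lists. That promoter peak, at chromosome 5, 21632160 to 21632641 in Neurons, had 15.1-fold in Astrocytes, 26.4-fold in Neurons and 7.52-fold in NSCs. Neurons were higher at 8.0-fold over NSCs in the authors' deposited table, and no table listed it for Astrocytes. A second promoter peak beside it, in the island shore, had 14-fold in Astrocytes and 15.7-fold in Neurons and none in NSCs. Rab2b, its paralogue, was the densest Rab gene of at least 20 kb in Astrocytes and NSCs, with 19.4 peaks per 100 kb in Astrocytes, 4.85 in Neurons and 14.5 in NSCs. Its strongest peak had 21.5-fold in Astrocytes, 13.6-fold in Neurons and 12.2-fold in NSCs, and was higher in Astrocytes at 6.58-fold over NSCs in the authors' deposited table.

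Rab43, a Golgi Rab, showed the largest fold between cell types of any Rab gene. Its intron region at chromosome 4, 119709513 to 119710074, had 20.4-fold over input in Astrocytes, 8.24-fold in Neurons and no peak in NSCs. Astrocytes were higher at 31.9-fold over NSCs and Neurons at 17.3-fold over NSCs in the authors' deposited tables. The other Rab43 peak had 32-fold in Astrocytes, 33.0-fold in Neurons and 20.4-fold in NSCs over input, and was not listed as different. Rab30, a Golgi Rab, had a single intron peak of 13.1-fold in Astrocytes and 22.2-fold in Neurons, and none in NSCs. All 3 comparisons listed it, with 4.93-fold for Astrocytes over NSCs, 8.34-fold for Neurons over NSCs and 4.03-fold for Neurons over Astrocytes in the authors' deposited tables. The region also named LOC103691196.

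Rab6a and Rab6b, which carry vesicles from the Golgi and back to the endoplasmic reticulum, had no peak in NSCs. Rab6a had 13.0-fold in Astrocytes and 11.9-fold in Neurons at the same intron, listed over NSCs at 14.3-fold for Astrocytes and 16.8-fold for Neurons in the authors' deposited tables. A second Rab6a intron peak, at 10.7-fold in Neurons, was listed at 13.9-fold over NSCs in the authors' deposited table. Rab6b, the form of Rab6 that is enriched in neurons, had 3 peaks in Neurons, at 9.90-fold, 12.3-fold and 8.43-fold, and none in Astrocytes or NSCs. It had the most regions in a single direction of any Rab gene. Neurons were higher in 3 of its regions over NSCs, at 7.5-fold to 13.6-fold, and in 4 over Astrocytes, at 8.11-fold to 10.9-fold, in the authors' deposited tables. These comparisons share the Neuron library, and 3 of these 7 listings lay outside a Neuron peak over input. Rab1a, which drives transport from the endoplasmic reticulum to the Golgi, had 1 peak, in Astrocytes at 8.91-fold. Rab18, found on lipid droplets and the endoplasmic reticulum, had an intron peak of 12.6-fold in Neurons. At another intron place it had one of 10.0-fold in NSCs. Rab33b, which acts in autophagy from the Golgi, had a downstream peak of 10.3-fold in Astrocytes and 7.18-fold in NSCs. Rab34 and Rab36 had no peak over input. Rab34 was higher in Neurons at 14.8-fold over NSCs in the authors' deposited table. A promoter and intron region of Rab36 was higher in NSCs at 9.68-fold over Astrocytes in the authors' deposited table. Another Rab36 region, of the intron class, was higher in NSCs at 9.87-fold over Neurons in the authors' deposited table.

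The 7 genes of the early endosome held 11 peaks in Astrocytes, 9 in Neurons and 8 in NSCs. Rab31, which moves cargo between the Golgi and endosomes, had 3 peaks in Astrocytes, 4 in Neurons and 4 in NSCs along 135 kb. Its strongest place, an intron in a CpG island shore at chromosome 9, 113502290 to 113502869 in Neurons, had 18.2-fold in Astrocytes, 35.0-fold in Neurons and 13.8-fold in NSCs. Neurons were higher there at 7.03-fold over NSCs in the authors' deposited table. Another Rab31 intron place had 9.94-fold in Neurons and 21.3-fold in NSCs, with no peak in Astrocytes. It was higher in NSCs at 6.76-fold over Astrocytes in the authors' deposited table. Rab22a, of early endosome sorting, had a peak at its end in all 3 lists, at 7.01-fold in Astrocytes, 13.6-fold in Neurons and 9.95-fold in NSCs. Further in, Astrocytes were higher at 8.55-fold over both Neurons and NSCs in 1 Rab22a intron in the authors' deposited tables. Rab20, linked to phagosome maturation, had 3 peaks in Astrocytes, 2 in Neurons and 1 in NSCs, none above 9.20-fold. One of its introns was higher in Neurons at 11-fold over NSCs and 10.4-fold over Astrocytes in the authors' deposited tables. Rab21, which moves integrins, had 1 intron peak of 10.9-fold in Astrocytes and 9.83-fold in Neurons, and another of 11.7-fold in Astrocytes and 15.4-fold in NSCs. Rab5c, which acts in early endosome fusion, had 1 peak, downstream of the gene in Neurons at 11.2-fold, which also named Kat2a and Hspb9. Rab5b, with no peak over input, was higher in Neurons at 8.43-fold over NSCs in the authors' deposited table.

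The 10 genes of late endosomes, lysosomes and related organelles held 6 peaks in Astrocytes, 9 in Neurons and 10 in NSCs, and most were those of Rab38. Rab38, which with Rab32 sends cargo to melanosomes and other lysosome-related organelles, had 4 peaks in Astrocytes, 6 in Neurons and 7 in NSCs along 80.3 kb. They merged into 12 places, of which 1 was shared by all 3 cell types and 8 had a peak in a single one. The strongest peak of Rab38, 24.2-fold over input in Astrocytes, overlapped none elsewhere. Astrocytes were higher there at 24.7-fold over Neurons and 14.8-fold over NSCs in the authors' deposited tables, the largest fold of a Rab region between Astrocytes and Neurons. NSCs in turn were higher in another Rab38 intron region, at 12.3-fold over Neurons in the authors' deposited table. Rab32 had an intron peak of 14-fold in Astrocytes and 32.6-fold in Neurons, and its NSC peak of 11.4-fold lay downstream of the gene. Neurons were higher in that Rab32 intron at 9.71-fold over NSCs in the authors' deposited table. Rab39a, of phagosome and autophagosome traffic, had an intron peak of 8.88-fold in Astrocytes and 11.7-fold in NSCs, and NSCs were higher there at 6.43-fold over Neurons in the authors' deposited table. Rab9a, which returns receptors from late endosomes to the Golgi, had an intron peak of 9.20-fold in Neurons. At another intron place it had one of 13.8-fold in NSCs. These places were listed as different, at 11.7-fold for Neurons over Astrocytes and 9.91-fold for NSCs over Neurons in the authors' deposited tables. Rab7b had 1 peak, in Neurons at 10.6-fold. Rab7a, the Rab that directs late endosomes to lysosomes, had none over input and 1 intron higher in Astrocytes at 9.30-fold over NSCs in the authors' deposited table.

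Of the remaining 5 genes, Rab40b had the strongest peaks. Rab40b belongs to a subfamily that recruits a ubiquitin ligase, and its exon and intron region at chromosome 10, 110561077 to 110562085 in Neurons, had up to 43.2-fold in Astrocytes, 37.6-fold in Neurons and 22.7-fold in NSCs. Neurons were higher there at 8.93-fold over NSCs in the authors' deposited table. Rab28, known from photoreceptor cilia, had 10.2-fold in Astrocytes and 12.5-fold in NSCs at 1 intron place and 12.1-fold in Neurons at another. The Neuron place of Rab28 was higher in Neurons at 11.7-fold over Astrocytes and 12.3-fold over NSCs in the authors' deposited tables. Rab23, a negative regulator of Hedgehog signalling, had no peak over input in any list. NSCs were nevertheless higher in 2 of its intron regions over Astrocytes, at 13.3-fold and 9.52-fold, in the authors' deposited table. Over Neurons they were higher in 3, at 8.64-fold to 14.8-fold, in the authors' deposited table. Both comparisons share the NSC library, and the 2 regions listed over Astrocytes were also listed over Neurons.

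A promoter peak named 5 Rab genes in Astrocytes (8.62%), against 6.40% of all genes. Neurons had 7 such genes (12.1%), against 7.94%. NSCs had 5 (8.62%), against 6.40%. Rab2a, Rab3c, Rab3d and Rab17 had a promoter peak in all 3 cell types. Rab27a had one in Astrocytes and Neurons, Rab8b and Rab25 in Neurons, and Rab37 in NSCs.

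Over all Rab genes, the peaks merged into 124 places, of which 31 had a peak in all 3 cell types, 29 in a pair and 64 in a single one. A peak in both other cell types was found for 46.6% of the 73 Rab peaks of Astrocytes (95% Clopper-Pearson interval 34.8 to 58.6), beside 45.8% of all Astrocyte peaks. For Neurons it was 37.3% of 83 (27 to 48.7), beside 38.6%. For NSCs it was 50.0% of 62 (37 to 63), beside 43.6%. Each interval held the share of all peaks. A peak in neither other cell type made up 21.9% of Rab peaks in Astrocytes (13.1 to 33.1), 39.8% in Neurons (29.2 to 51.1) and 24.2% in NSCs (14.2 to 36.7), beside 29.2%, 36.1% and 32.1% of all peaks. Of Rab peaks at or above their list's median score, 27 of 37 in Astrocytes, 23 of 41 in Neurons and 21 of 33 in NSCs were found in both other cell types. Below the median it was 7 of 36 in Astrocytes, 8 of 42 in Neurons and 10 of 29 in NSCs. Of the Rab peaks found in neither other cell type, 13 of 16 in Astrocytes, 24 of 33 in Neurons and 11 of 15 in NSCs lay below the median. The same split by score was not made for all peaks, so it shows nothing particular to Rab genes.

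Between Neurons and NSCs, the comparison with the most Rab regions, 33 regions in 23 Rab genes were higher in Neurons and 18 in 15 genes higher in NSCs in the authors' deposited tables. The 23 genes are 39.7% of Rab genes, against 23.2% of all protein-coding genes with a region higher in Neurons in the authors' deposited table. The 15 are 25.9%, against 20.5% of all genes with a region higher in NSCs in the authors' deposited table. Of the Rab regions of both directions, 64.7% were higher in Neurons in the authors' deposited tables (interval 50.1 to 77.6), beside 54.8% of all gene-named regions. Among Rab genes of 30 to 100 kb, 11 of 16 had a region higher in Neurons in the authors' deposited table (68.8%), beside 37.5% of all genes of that length. For regions higher in NSCs it was 5 of 16 in the authors' deposited table (31.2%), beside 33.8%. From 10 to 30 kb, 8 of 29 Rab genes had a region in each direction (27.6%) in the authors' deposited tables, beside 18.5% of all genes of that length higher in Neurons and 15.2% higher in NSCs. Both directions held genes of every role. Those higher in Neurons included Rab6a, Rab6b, Rab30 and Rab43 of the Golgi and Rab27a and Rab27b of secretion. Of the 23 genes, 16 had regions in that direction alone. That count was not made for all genes, so it shows nothing particular to Rab genes. The largest folds for Neurons over NSCs were those of Rab43 at 17.3-fold, Rab6a at 16.8-fold, Rab8b at 15.7-fold and Rab34 at 14.8-fold in the authors' deposited table. For NSCs over Neurons they were Rab23 at 14.8-fold, Rab8b at 13.6-fold, Rab38 at 12.3-fold and Rab5c at 11.1-fold in the authors' deposited table. Of the 33 regions, 28 lay in a Neuron peak over input, while 10 of the 18 NSC regions lay in an NSC peak. Such regions higher in Neurons named 34.5% of Rab genes against 19.5% of all genes in the authors' deposited table. Those higher in NSCs named 17.2% against 14.6% in the authors' deposited table. With 1 library of each cell type, the difference of these shares from those of all genes was not tested.

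Between Astrocytes and NSCs the 2 directions were close to even among Rab genes. Regions higher in Astrocytes numbered 14 in 13 genes (22.4%), against 18.6% of all genes in the authors' deposited table. At or above the median score it was 8.62% of Rab genes against 11.2% of all genes in that authors' deposited table. Regions higher in NSCs numbered 15 in 11 genes (19.0%), against 22.3% of all genes in the authors' deposited table. The share of Rab regions higher in Astrocytes was 48.3% in the authors' deposited tables (interval 29.4 to 67.5), beside 42.0% of all gene-named regions. Rab22a, Rab31, Rab38, Rab3c and Rab44 had regions in both directions. Rab43 at 31.9-fold, Rab38 at 14.8-fold, Rab6a at 14.3-fold and Rab31 at 13.4-fold had the largest folds for Astrocytes over NSCs in the authors' deposited table. For NSCs over Astrocytes they were Rab23 at 13.3-fold, Rab44 at 11.7-fold, Rab14 at 10.6-fold and Rab8a at 9.86-fold in the authors' deposited table. The Rab23 and Rab14 regions lay in no NSC peak over input. In all, 11 of the 14 Astrocyte regions lay in an Astrocyte peak and 10 of the 15 NSC regions in an NSC peak. Such regions higher in Astrocytes named 17.2% of Rab genes against 14.9% of all genes in the authors' deposited table. Those higher in NSCs named 12.1% against 16.7% in the authors' deposited table.

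Between Astrocytes and Neurons, 8 regions in 6 Rab genes were higher in Astrocytes (10.3%), against 15.3% of all genes in the authors' deposited table. In the other direction, 22 regions in 17 Rab genes were higher in Neurons (29.3%), against 25.6% of all genes in the authors' deposited table. Regions at or above the median score named 15.5% of Rab genes and 16.4% of all genes there in the authors' deposited table. The share of Rab regions higher in Astrocytes was 26.7% in the authors' deposited tables (interval 12.3 to 45.9), and that of all gene-named regions 29.8%. Rab3c and Rab15 had both directions. After Rab38 at 24.7-fold, the largest folds for Astrocytes over Neurons were those of Rab3c at 14.3-fold, Rab15 at 11.7-fold and Rab11a at 9.77-fold in the authors' deposited table. These Rab3c, Rab15 and Rab11a regions lay in no Astrocyte peak over input. In all, 5 of the 8 Astrocyte regions lay in an Astrocyte peak and 18 of the 22 Neuron regions in a Neuron peak. Such regions higher in Astrocytes named 6.9% of Rab genes against 11.9% of all genes in the authors' deposited table. Those higher in Neurons named 24.1% against 19.8% in the authors' deposited table. For Neurons over Astrocytes the largest was 12.1-fold, at a Rab3c intron, followed by Rab9a and Rab28 at 11.7-fold each and Rab6b at 10.9-fold in the authors' deposited table. Each pair of these comparisons shares a library, so their gene counts are not independent of each other.

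**Figure D5:**
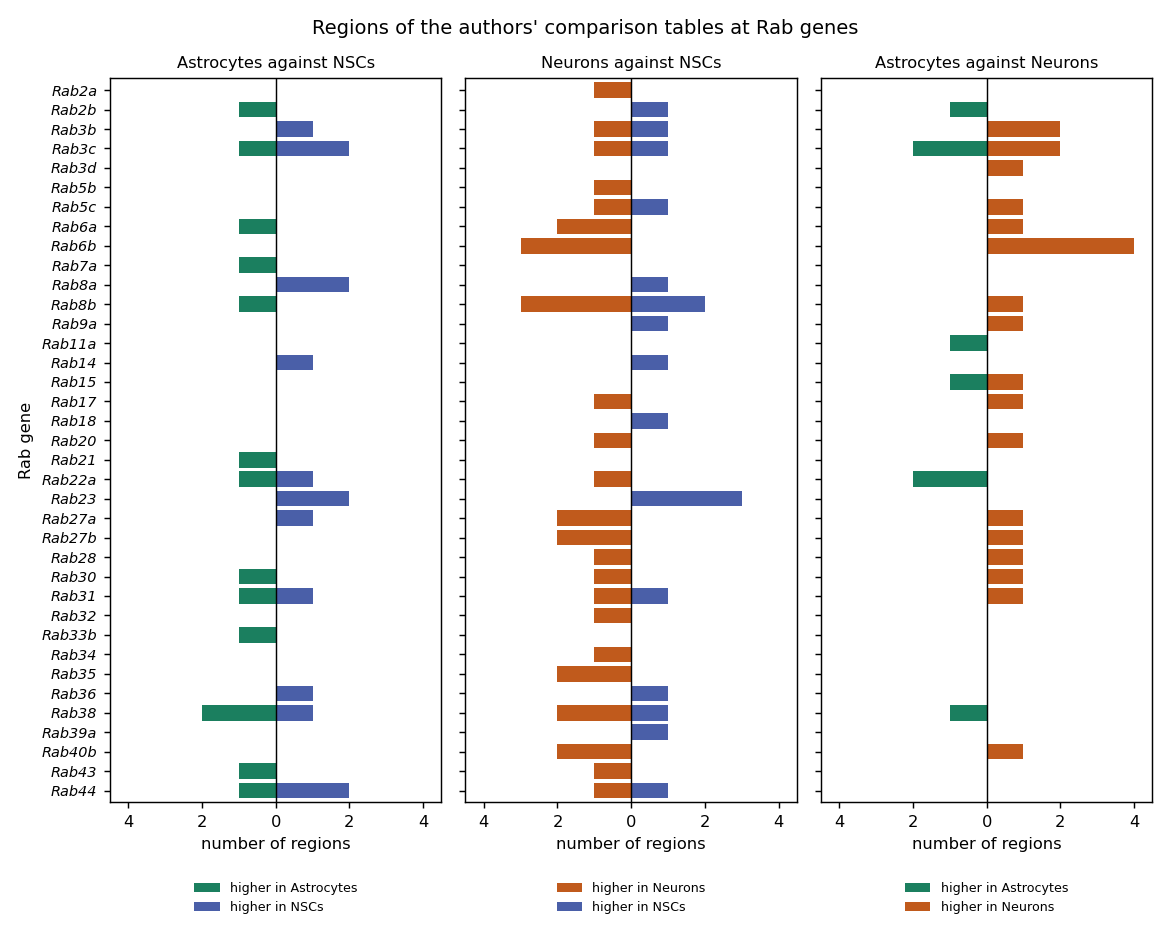
Bars count the regions at each Rab gene in the authors' deposited tables for 3 comparisons, with regions higher in the first-named cell type drawn to the left of 0 and those higher in the second to the right. In the panel of Neurons against NSCs 33 regions lie to the left and 18 to the right, and Rab6b has 3 regions left there and 4 on the Neuron side of the last panel.

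The genes that act on Rab proteins are longer than the Rab genes, with a median of 62.5 kb. Of 113 genes for GDP dissociation inhibitors, prenylation, GEFs, GAPs and effectors, 82 had a peak in Astrocytes (72.6%), 89 in Neurons (78.8%) and 81 in NSCs (71.7%). Over all genes the shares were 39.5%, 42.3% and 39.3%, and over all genes of 30 to 100 kb they were 67.8%, 71.5% and 67.9%. The 113 genes were not limited to that length. Of all genes over 100 kb, 86.9%, 87.5% and 87.0% had a peak, and of those under 10 kb 11.3%, 13.0% and 10.9%. By role, peaks named 21 of 27 GAPs in Astrocytes, 24 in Neurons and 21 in NSCs, and 20, 22 and 20 of 30 GEFs. Effectors had a peak in 39 of 48 genes in Astrocytes, 42 in Neurons and 38 in NSCs. Genes of GDP dissociation and prenylation, with a median length of 8.64 kb, had one in 2, 1 and 2 of 8. Usp6nl, a GAP linked to Rab5, had an intron peak of 126-fold in Astrocytes, 133-fold in Neurons and 69.2-fold in NSCs. Rims1, the active zone scaffold that binds Rab3, held 33 peaks in Neurons and 35 in NSCs, the strongest at 95.7-fold and 93.3-fold. Tbc1d2, a GAP linked to Rab7, reached 94.4-fold in Astrocytes and 79.5-fold in NSCs. Tbc1d5 in Astrocytes (74.1-fold) and Rab3gap1 in Neurons (105.1-fold), both GAP genes, completed the 3 largest folds of each list.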

How the data were processed

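One immunoprecipitated library each of Astrocytes, Neurons and NSCs was read from the authors' files, with 9 lists of regions in use. Reads were aligned with BWA, per the submitters' processing notes, which give no version. No build, annotation, filter or peak caller version was given in the sources used here. Read counts per library, and mapped reads as a percent of the library, come from the authors' deposited mapping summary, of which 1 entry without a sample was not used. The deposited score of a region is 10 times a −log10 p, per the file headers. The authors' fold is a ratio, in the peak lists to the library's input and in the 6 comparison tables to a second immunoprecipitated library. The authors' deposited GO tables give the number of genes with a peak, the number expected, their ratio and an adjusted p-value. KEGG tables were not used.

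Regions were read as deposited, with 6 blank lines skipped, and matched to RefSeq genes by symbol. Gene lengths and promoters are those of GRCr8, whose coordinates were never joined to the files' positions. An overlap of 1 bp or more made peaks of separate lists shared. Regions per 100 kb divide the number named to a gene, flanks included, by its RefSeq length. Intervals on shares are 95% intervals (exact, Clopper-Pearson) of counting error alone. With 1 library per cell type no test was made. The overlap step was tested on simulated regions. Every Rab gene is accounted for, and fuller values are given for those with a promoter peak, the 6 with the largest fold, most peaks or, from 20 kb, most peaks per 100 kb in a list, the 4 with the largest fold in a comparison table, and those with at least 3 regions in a single direction. Members, roles, gene lists and rules were chosen with earlier results of these data known. Alternatives were a stricter score, a stricter fold, gene bodies alone, equal list sizes, a stricter overlap and regions inside a peak of the higher library. Python 3.11.15, NumPy 2.4.6, SciPy 1.17.1 and matplotlib 3.10.9 were used.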

Additional observations from a re-analysis of the deposited data

How the results depend on the processing

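Of 51 alternative values for 15 results, 31 stayed within 1.5 times the count given above, or inside the interval of the share. Keeping peaks at or above the median score of 87.44 left 18 Rab genes with a peak in Astrocytes and 18 in NSCs, and 3 and 2 with a promoter peak. Keeping those at or above the median fold of 12.07 left 17 and 18 with a peak, and 2 and 2 with a promoter peak. In the comparison tables, the median score of 62.44 left 5 genes for Astrocytes over NSCs, 5 for NSCs over Astrocytes, 15 for Neurons over NSCs, 7 for NSCs over Neurons, 1 for Astrocytes over Neurons and 9 for Neurons over Astrocytes. The median fold of 9.53 left 6, 5, 12 and 9 in the first 4 of these, and 8 for Neurons over Astrocytes. Regions inside an NSC peak over input left 7 genes for NSCs over Astrocytes. A stricter score or fold leaves fewer regions by construction. With the stricter score, the shares of Rab genes with a peak were 31% in Astrocytes, 39.7% in Neurons and 31% in NSCs, against 28.3%, 30.5% and 28% of all genes. With the stricter fold they were 29.3%, 41.4% and 31%, against 28.1%, 30.6% and 27.8%. A region higher in Neurons than in NSCs named 25.9% of Rab genes against 14.9% of all genes with the stricter score, and 20.7% against 14.7% with the stricter fold. The share for Astrocytes over NSCs moved below that of all genes, at 8.62% against 11.2% with the score and 10.3% against 11.6% with the fold. So did Neurons over Astrocytes, at 15.5% against 16.4% and 13.8% against 16%; the cause was not tested. NSCs over Neurons had 12.1% against 11.6% and 15.5% against 12.6%. NSCs over Astrocytes had 8.62% against 13.2% with either, and Astrocytes over Neurons 1.72% against 8.31% and 6.9% against 9.87%. No paired analysis was possible because each cell type has 1 immunoprecipitated library and no result comes from a test. Depth limits which weaker regions passed the authors' score.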

Other observations

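The authors' deposited table of GO terms for Astrocytes lists Rab GTPase binding, a term of proteins that bind Rab proteins, with 87 of 122 genes holding a peak, where 49.2 were expected (adjusted p-value 0.0189, the authors' own). For Neurons the authors' deposited table has 86 genes with 54.2 expected (adjusted p-value 0.231), and for NSCs 82 with 49.6 expected (adjusted p-value 0.0989). These p-values rest on genes of 1 library each, and the difference between cell types was not tested. The term names none of the Rab genes described above among its genes with a peak. Rab protein signal transduction, a term of 6 genes, had 4 in Astrocytes, 2 in Neurons and 1 in NSCs in the authors' deposited tables, all of them Rab genes, with 2.42, 2.66 and 2.44 expected (adjusted p-values 0.856, 1 and 1). GTPase activity, a broader term, had 129 of 285 genes in Astrocytes, 142 in Neurons and 129 in NSCs in the authors' deposited tables, with 115, 127 and 116 expected and 31, 32 and 28 Rab genes among them. Its adjusted p-values were 0.856 in Astrocytes, 0.948 in Neurons and 0.879 in NSCs in the authors' deposited tables.

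Genes that act on Rab proteins also stood in the comparison tables. Of the 113, a region was higher in Neurons than in NSCs at 48 genes (42.5%) and higher in NSCs than in Neurons at 42 (37.2%) in the authors' deposited tables. The shares of all genes were 23.2% and 20.5%, and those of all genes of 30 to 100 kb 37.5% and 33.8%, in the authors' deposited tables. For Astrocytes against NSCs it was 47 genes higher in Astrocytes (41.6%) and 53 higher in NSCs (46.9%) in the authors' deposited tables, beside 18.6% and 22.3% of all genes and 29.7% and 36.9% of those of 30 to 100 kb. For Astrocytes against Neurons, 40 were higher in Astrocytes (35.4%) and 56 in Neurons (49.6%) in the authors' deposited tables, beside 15.3% and 25.6% of all genes and 24.3% and 41.2% of those of 30 to 100 kb. A gene can stand in both directions. The 113 genes were not limited to 30 to 100 kb, so that class does not match their lengths. For Astrocytes over NSCs, the share of all genes was 4.01% under 10 kb and 61.2% over 100 kb.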
